A study of Mus musculus with 8 samples.

Results

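In EML_C1 cells, runs of closely spaced Runx1 regions lay over or around genes such as Runx1 itself, Pip4k2a, Zfp36l2, Rin3 and Socs3. A Runx1 region was a stretch of merged peaks to which both Runx1 replicates contributed, neighbouring regions were joined where the gap between them was 12.5 kb or less, and a dense cluster was a joined group with at least 6 regions. By this rule 1013 of 22404 clusters were dense (4.52%), and they held 8150 of the 44026 Runx1 regions (18.5%). The clusters were chosen on the positions of Runx1 peaks, so their number, span and Runx1 enrichment describe the choice and are given without a test. With 2 libraries per antibody, no difference given here was tested; differences between groups are stated as counts, shares and values per replicate.

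Runx1 is a transcription factor that binds DNA as a dimer with Cbfb and is required for the emergence of definitive blood stem cells; it also acts in megakaryocytes, lymphocytes and myeloid cells. Ezh2 is the catalytic subunit of Polycomb repressive complex 2 and sets H3K27me3, trimethylation of lysine 27 on histone H3, a mark of repressed genes. Closely spaced binding sites of blood transcription factors are a known feature of the enhancer stretches around genes that set blood cell identity. Whether a dense cluster is an enhancer was not measured here.

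All libraries came from EML_C1, a mouse haematopoietic progenitor line of C57BL/6 strain, per the labels, grown with 200 ng/ml mouse stem cell factor, and all cells were untreated. EML cells are immortalised through a dominant-negative retinoic acid receptor and depend on stem cell factor, so they are a line and not primary progenitors. Chromatin immunoprecipitation and sequencing was done in 2 replicates each with antibodies to Runx1, Ezh2 and H3K27me3, with 2 input libraries without antibody. Chromatin for Runx1 and Ezh2 was fixed with 2 mM DSG and then 1% formaldehyde for 60 min each, and the same input serves both; chromatin for H3K27me3 was fixed with 1% formaldehyde for 10 min and has its own input. The labels do not say that replicates were separate cultures, so their spread may be technical. No read totals were at hand, and the depth of the libraries is therefore unknown.

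Several dense clusters held genes of microRNAs, which pair with messenger RNAs mainly through bases 2 to 8, the seed. Among 1005 mouse hairpins in the RefSeq table on GRCm38.p6, 60 lay in or touched a dense cluster (5.97%). The mature sequences below are shown because their hairpins lie in clusters of the kind described here and have known roles in blood or signalling; they were picked from the 60 by those roles, and the seed is in capitals. miR-142 is abundant in blood cells. miR-126a is encoded in an intron of Egfl7 and is known from blood stem cells and endothelium. miR-23a, miR-27a and miR-24-2 are made from 1 primary transcript.

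miR-142a-3p: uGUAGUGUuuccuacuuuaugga
miR-142a-5p: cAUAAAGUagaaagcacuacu
miR-126a-3p: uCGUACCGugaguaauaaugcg
miR-23a-3p: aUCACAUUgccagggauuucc
miR-27a-3p: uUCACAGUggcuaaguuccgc
miR-24-3p: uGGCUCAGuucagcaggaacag

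The cluster at Mir142 and its antisense partner Mir142b (chromosome 11, 87726225 to 87763202) held 12 Runx1 regions, and its strongest reached 44.6-fold and 48.3-fold enrichment in replicates 1 and 2. Folds are the linear enrichments that the authors' peak caller gave to each peak, and a region takes the highest fold of its peaks in each replicate. The nearest region lay 27 bp from the Mir142 hairpin, with folds of 3.48 and 4.52, so the region beside the hairpin was not the strong one. The 10 regions of the Mir126a cluster (chromosome 2, 26566159 to 26606909) reached 51.1-fold and 42.3-fold. The Mir23a, Mir27a and Mir24-2 hairpins sat at the end of a cluster of 7 regions (chromosome 8, 84192058 to 84209264) that reached 22.2-fold and 22.8-fold. None of these 3 clusters held an Ezh2 or H3K27me3 region. The pairs miR-29a and miR-29b, and miR-132 and miR-212, each share a seed and each lie in a single cluster. miR-29 is known to target collagens, miR-132 and miR-212 are known from neurons, miR-146b is linked to NF-kB signalling, and let-7i belongs to the let-7 family, which restrains growth genes.

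miR-29a-3p: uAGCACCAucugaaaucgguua
miR-29b-3p: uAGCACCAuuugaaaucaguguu
miR-132-3p: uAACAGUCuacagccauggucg
miR-212-3p: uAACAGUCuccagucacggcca
miR-146b-5p: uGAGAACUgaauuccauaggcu
miR-191-5p: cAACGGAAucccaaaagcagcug
let-7i-5p: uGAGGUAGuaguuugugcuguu

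The Mir29a and Mir29b-1 cluster (chromosome 6, 31058874 to 31085697; 7 regions) reached 14.9-fold and 16.9-fold. In the Mir132 and Mir212 cluster (chromosome 11, 75173015 to 75214744; 7 regions) both hairpins lay within its strongest region, at 12.8-fold and 11.3-fold. The Mir146b cluster (chromosome 19, 46304124 to 46369478) held 13 regions, up to 29.7-fold and 27.04-fold. Those at Mir191 (7 regions) and Mirlet7i (6 regions) reached 14.1-fold and 14.7-fold, and 12.2-fold and 20.5-fold. The Mir132 and Mir146b clusters were the ones of these with Polycomb signal, with 1 Ezh2 and 2 H3K27me3 regions at Mir132 and 5 Ezh2 and 1 H3K27me3 regions at Mir146b.

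RUNX proteins bind short sequences with the core TGTGGT or TGCGGT, whose reverse complements are ACCACA and ACCGCA. These letters were searched on both strands in the RefSeq promoter windows, 250 bases before to 50 after a gene's start on GRCm38.p6. Of the 1377 windows of protein-coding genes in dense clusters, 1095 touched a Runx1 region (79.5%), against 8727 of 21263 windows in all (41.0%), a difference that the rule itself favours. The letters stood in 256 of those 1095 windows (23.4%), in 61 of the 282 dense-cluster windows without a Runx1 region (21.6%) and in 4585 of all 21263 windows (21.6%). In windows outside dense clusters they stood in 22.9% of those with a Runx1 region and 20.6% of those without. The shares lay close together. At least 2 copies stood in 34 of the 1095 dense-cluster windows with a Runx1 region and in 562 of all 21263 windows. At the Runx1 gene 2 copies stood 2 bases apart just after the start, inside the region with the highest fold of its cluster. The stretch below is chr16:92826025-92826054 on the minus strand, bases 21 to 50 after the start, with the matches in capitals. It is followed by the 250 bases before the start of Kcnn4, a calcium-activated potassium channel of blood cells, with 4 matches (chr7:24370013-24370262, plus strand), and of Cbfa2t3, a corepressor related to the partner of Runx1 in a leukaemia fusion (chr8:122699110-122699359, minus strand). Those promoters were chosen after their letters were seen.

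Runx1: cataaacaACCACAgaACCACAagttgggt
Kcnn4: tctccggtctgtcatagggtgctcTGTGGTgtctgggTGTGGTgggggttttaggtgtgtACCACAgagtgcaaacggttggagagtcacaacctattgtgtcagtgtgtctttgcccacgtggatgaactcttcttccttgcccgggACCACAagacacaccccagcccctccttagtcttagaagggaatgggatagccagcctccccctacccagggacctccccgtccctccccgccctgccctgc
Cbfa2t3: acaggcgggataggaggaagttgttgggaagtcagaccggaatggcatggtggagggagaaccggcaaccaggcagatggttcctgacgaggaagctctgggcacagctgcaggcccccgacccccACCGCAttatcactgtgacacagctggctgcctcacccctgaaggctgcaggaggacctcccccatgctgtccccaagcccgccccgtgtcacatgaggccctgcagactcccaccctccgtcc

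The Kcnn4 region (7.85-fold and 10.6-fold) lay in a cluster of 9 regions, and the Cbfa2t3 region (7.59-fold and 6.97-fold) at the edge of a cluster of 8. A match is a description of letters and not a site.

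Most dense clusters were just above the limit. There were 348 clusters of exactly 6 regions, 223 of 7, 156 of 8, 92 of 9 and 194 of 10 or more; 6 held 20 or more. Just inside the limit, the clusters of 6 regions had a median span of 24252 bp, 10.9% held an Ezh2 region, 12.4% held an H3K27me3 region, and the median of their mean folds was 6.71. Just outside it, the 636 clusters of 5 regions had a median span of 20630 bp, the shares were 10.5% and 14.8%, and the median fold was 7.02. The limit thus cuts through a continuous range. The widest clusters of 6 regions lay over Tmem131 (50712 bp) and over Usp48 and Rap1gap (47803 bp). The widest of 5 lay over Atxn7l1 (42957 bp) and 35727 bp from Bach2 (41852 bp), a repressor of B cell and T cell maturation.

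**Figure D1:**
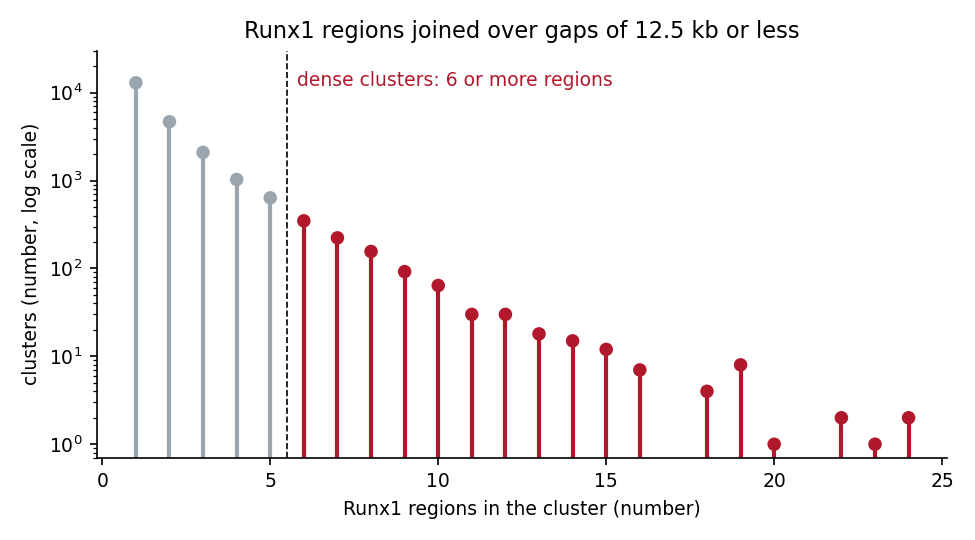
Number of clusters (log scale) by the number of Runx1 regions they hold, with dense clusters in red and smaller ones in grey. Counts fall from 12962 single regions to 636 clusters of 5 and 348 of 6, and the largest clusters hold 24 regions.

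The median dense cluster spanned 30672 bp (quartiles 23252 and 41551 bp, range 6239 to 115562 bp). Together they spanned 34.3 Mb, or 1.26% of the chromosomes' extent. The gaps between neighbouring regions inside them had a median of 3307 bp, well under the joining distance; 673 of 7137 gaps (9.43%) exceeded 10 kb. Chromosome 11 held the most dense clusters, 110, or 0.902 per Mb. Chromosome 19 followed with 0.750 per Mb, the X chromosome held 7 (0.0410 per Mb) and the Y chromosome none. Runx1 regions in clusters of any size had the same order. They numbered 28.9 per Mb on chromosome 11, 23.7 on chromosome 19, 4.44 on X and 0.275 on Y.

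The clusters with the most regions held 19 to 24 and lay at genes of differing roles. A cluster of 24 regions over 95841 bp covered Pip4k2a, a lipid kinase that acts on phosphatidylinositol 5-phosphate, with 22 of its regions inside a gene. Its highest folds were 17.6 and 27.4, and its regions had median folds of 3.66 and 4.72, so it was long and of ordinary height. The other cluster of 24 regions (106807 bp) ran over Cryba4, Crybb1, Tpst2 and Tfip11 and reached 94.3-fold and 90.6-fold. Crybb1 and Cryba4 encode lens crystallins, while Tpst2 encodes a tyrosine sulfotransferase and Tfip11 a splicing factor; the strongest region was centred 16 bp from a gene end. Zfp36l2, an RNA-binding protein that destabilises AU-rich messages and is needed for blood stem cells in mice, had 22 regions over 88354 bp. Only 1 of these regions was centred inside a gene. Syne3 and Glrx5, a mitochondrial protein of iron-sulfur cluster assembly, shared a cluster of 22 regions, and Rin3, a Rab5 guanine nucleotide exchange factor, had 20 regions, all inside the gene body. Besides the clusters at Runx1 and near Runx3 described next, there were 23 regions at Tjp3 and its neighbours, and 19 each at Sirt4 and Pxn, at Il4ra and Il21r, 2 cytokine receptor genes, and at Prr12 and neighbours, the widest of all at 115562 bp. The tightest cluster lay at Tgif1, a repressor of TGF-beta and retinoid signalling, with 6 regions in 6239 bp (9.62 per 10 kb, against a median of 2.42). Aak1 (8.23 per 10 kb) and Ssbp3 (8.19 per 10 kb) followed.

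The Runx genes themselves carried dense clusters. Runx1 (chromosome 16, 92601466 to 92826074) held 47 regions in 3 clusters that together ran along most of the gene. The cluster at its start (92748149 to 92826580) had 19 regions, the middle cluster 12 and the cluster at its other end 16. Their highest folds were 56.0 and 72.0 at the start, 19.02 and 22.3 in the middle, and 42.2 and 61.7 at the other end. The highest region of the first cluster lay on the gene's start itself (92825413 to 92826580), and the next highest, at 38.0-fold and 42.8-fold, lay 25131 bp inside the gene from that start. All 3 of these clusters rest on weak regions as well as strong ones: with Runx1 peaks of q at most 0.01, none of them still held a run of 6 regions over gaps of 12.5 kb or less. Only 4 genes were overlapped by 3 dense clusters: Runx1, Gse1, Vps13d and Zmiz1. Their lengths of 208869 to 352883 bp lie above the median of 17.2 kb for protein-coding genes. Runx3, which acts in T cells and natural killer cells, had a cluster of 9 regions at the gene (up to 12.2-fold and 11.1-fold) and a larger one 17598 bp away with 19 regions over 90673 bp, which overlapped no protein-coding gene and reached 57.6-fold and 57.3-fold. Runx2, the master regulator of bone formation, had clusters of 7 regions (80.3-fold and 70.8-fold) and 8 regions (7.26-fold and 13.5-fold). Cbfa2t3 had clusters of 7 (117-fold and 97.5-fold) and 8 regions (31.9-fold and 27.97-fold). The cluster of 7 also overlapped Galns, Trappc2l and Pabpn1l. Tle3, a Groucho corepressor that RUNX proteins recruit, had 8 regions (32.7-fold and 38.2-fold). No Ezh2 or H3K27me3 region lay in any of the clusters that overlapped Runx1, Runx2, Runx3, Cbfa2t3 or Tle3. Of all dense clusters, 82.3% likewise held neither.

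**Figure D2:**
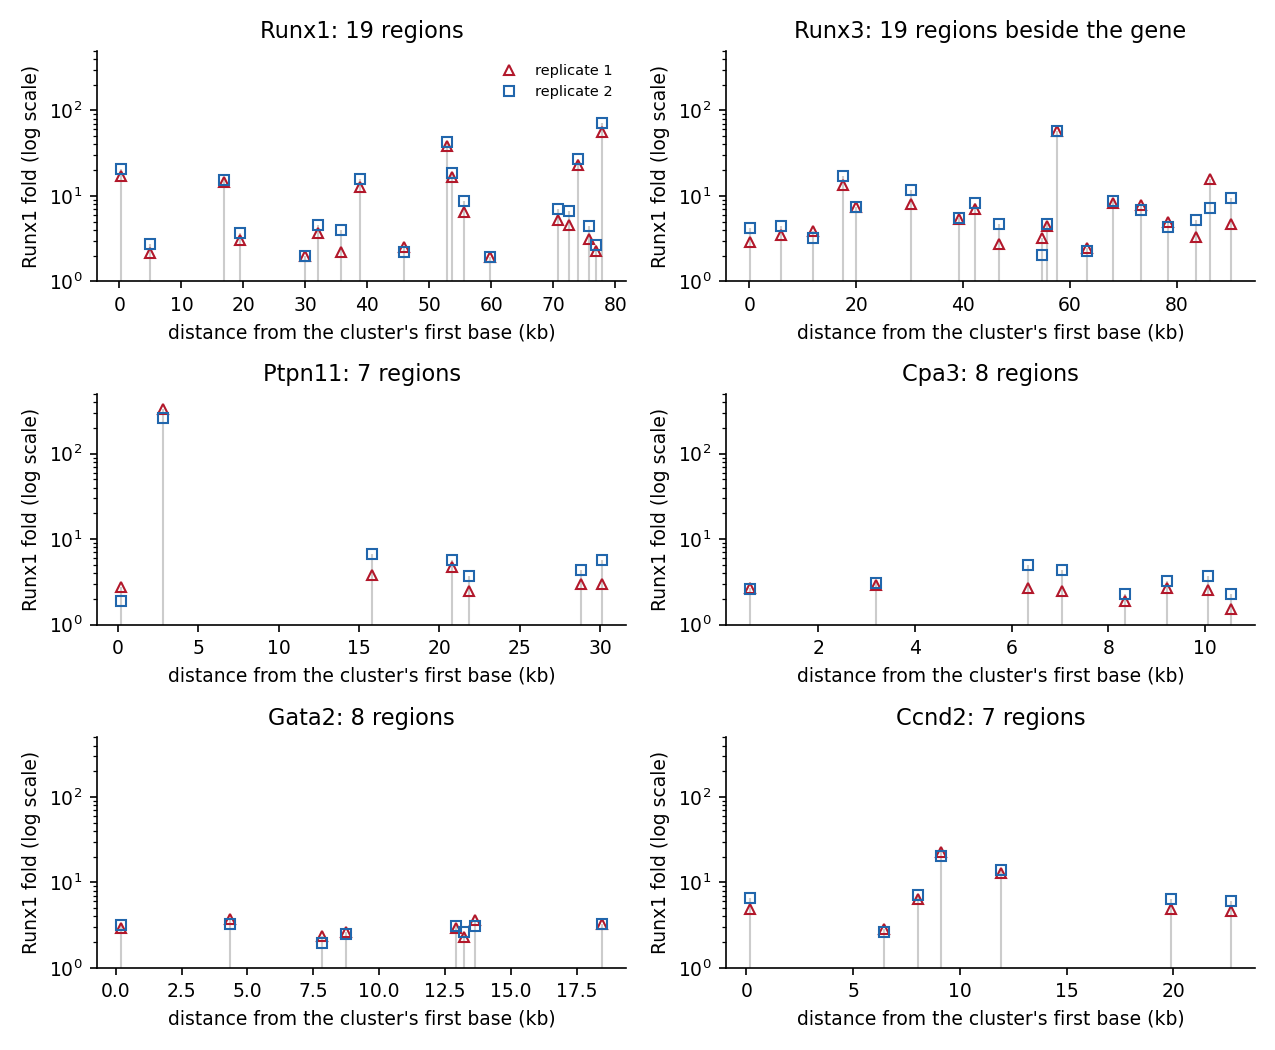
Runx1 fold enrichment (log scale) of each region against its distance in kb from the first base of its cluster, for 6 clusters; triangles are replicate 1 and squares replicate 2. Ptpn11 has a single region above 250-fold among 6 weak ones, Cpa3 and Gata2 have none above 5-fold, and the Runx1 and Runx3 clusters have several heights.

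The heights of the regions in a cluster differed. By the choice of the highest, the strongest region of a dense cluster had a median fold of 16.3 and 19.2 in replicates 1 and 2, against 3.81 and 4.54 for the other regions. It was above 10-fold, as the mean of both replicates, in 826 clusters (81.5%). Its fold was a median of 1.57 times that of the second strongest, and more than 2 times in 336 of 1013 clusters. The same region was strongest in both replicates in 862 clusters (85.1%). Taken over all regions the medians nearly coincided: the median fold was 4.27 and 5.12 in dense clusters and 4.25 and 5.12 in clusters of fewer than 6 regions. The replicates ranked regions alike, with a Spearman correlation of 0.910 over the 8150 regions of dense clusters and 0.891 over all 44026, which share the libraries and their input.

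The clusters with the highest mean folds differed in build, and in some of them 1 very strong region stood out. The Ptpn11 cluster (chromosome 5, 121122115 to 121152377) had 7 regions with a mean fold of 45.7 ± 6.81 (SD over 2 replicates). Ptpn11 encodes the phosphatase Shp2, which transmits signals from Kit and other cytokine receptors. A region 5646 bp outside the gene reached 334-fold and 258-fold, while the other 6 stayed at or under 6.67-fold in both replicates. Acvrl1, a receptor of the BMP pathway, was built alike, with 260-fold and 219-fold for its strongest region and 34.9 ± 3.01 for the mean of its 8. Pim1, a kinase induced by cytokines, was not: its 6 regions averaged 31.9 ± 1.30. The region at an end of the gene, start or end, had folds of 106 and 104, and 3 further regions exceeded 15-fold in both replicates. The clusters at Rab3d and neighbours (34.7 ± 6.85) and at Tmub2, Atxn7l3 and Ubtf (26.8 ± 4.47) completed the highest 5. Each held a further strong region beside its strongest. At Rab3d these were at 42.4-fold and 38.2-fold beside 174-fold and 118-fold. At Tmub2 they were at 52.2-fold and 39.9-fold beside 87.5-fold and 65.7-fold. At the other end, 19 clusters had no region above 5-fold as the mean of both replicates. Cpa3, the mast cell carboxypeptidase, had 8 regions in 10727 bp that reached 2.94-fold and 4.92-fold, and none had a q of 1e-05 or less in both replicates. Gata2, a transcription factor needed for blood stem cells and mast cells, had 8 regions in 18638 bp that reached 3.69-fold and 3.29-fold, of which 3 passed that limit. In all, 361 dense clusters held at least 6 regions that passed it.

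Compared with the chromosomes as a whole, dense clusters lay where genes are close together. Of the 1013, 511 overlapped 1 protein-coding gene, 211 overlapped 2 and 185 overlapped 3 or more, and 191 (18.9%) lay wholly inside a single gene. Gene ends numbered 64.8 per Mb inside dense clusters, against 16.1 per Mb over the chromosomes, and genes covered 60.8% of their bases, against 37.9%. Counted per region the order was the other way: 1486 of 8150 regions (18.2%) were centred within 1 kb of the start or end of a protein-coding gene, against 9779 of 44026 regions in all (22.2%). The share was 24.2% for single regions, 24.2% for pairs, 21.3% in clusters of 3 to 5 and 18.2% in dense clusters. Lying in genes was not particular to dense clusters. Regions centred inside a gene were 56.6% of single regions, 58.5% in pairs, 60.1% in clusters of 3 to 5 and 62.5% in dense clusters. The strongest region was at an end in 285 clusters (28.1%), against 16.8% of the other 7137 regions of dense clusters, and 341 clusters (33.7%) had no region at an end. The largest gathering of genes was a cluster of 12 regions over 15 genes on chromosome 13 (23530897 to 23593809), among them the core histone genes H4c8, H2ac10 and H3c8, with 11 regions at gene ends.

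The remaining 106 clusters overlapped no protein-coding gene and lay a median of 26703 bp from the nearest, 71 of them within 50 kb. Besides the cluster beside Runx3, those with the most regions were nearest to Max, the dimer partner of Myc (16 regions, 92627 bp away), to Ier3, an immediate early gene (15 regions, 22309 bp), to Zfp217 (13 regions, 1737 bp) and to Id2, an inhibitor of basic helix-loop-helix factors (13 regions, 111967 bp). The farthest lay 231913 bp from Rplp1, 188223 bp from Rbms3 and 173027 bp from Bcl2l11, the death protein Bim. Nearness to a gene does not show which gene a cluster acts on.

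In all, 1691 of 21887 protein-coding genes overlapped a dense cluster (7.73%) and 1526 had an end inside one (6.97%). Gene lists are read beside this share. They were chosen with earlier results of these data known, and the part of that choice in their shares was not tested. Region counts and folds given for a gene are those of its whole cluster, which other genes may share. The lists share genes, among them Kit, Gata2, Spi1, Csf2rb and Runx1, so their shares are not separate results. Genes of the cytokine receptor and signalling list had a median length of 23.8 kb, against 17.2 kb for all genes. The part of length was not tested. Of these genes, 15 of 35 overlapped (42.9%), all with an end inside. They were the receptors Kit, Csf2rb, Il2rg and Il6ra, the kinases Jak1 and Pim1, the transcription factors Stat5a and Stat5b, the phosphatases Ptpn11 and Ptpn6, and the inhibitors Cish, Socs1, Socs3, Sh2b3 and Spry1. Cluster sizes differed among the inhibitors: Spry1 and Socs1 had 6 regions each, while Socs3 lay in 1 of 18 regions (up to 63.9-fold and 55.8-fold), Cish in 1 of 16 (48.8-fold and 56.5-fold) and Sh2b3, which restrains Jak2 and Kit signalling, in 1 of 12 (128-fold and 110-fold). The receptor genes Kit, Csf2rb and Il2rg had 6 regions each, with highest folds of 5.82 and 7.44 at Kit, 6.23 and 9.75 at Csf2rb, and 10.04 and 12.53 at Il2rg. Stat5a and Stat5b shared 1 cluster of 7.

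Of stem and progenitor regulators, 13 of 36 overlapped (36.1%) and 9 had an end inside. Zfpm1, the Gata1 cofactor Fog1, had 13 regions with median folds of 11.2 and 13.1, the highest medians among the clusters of this list, and a strongest region of 49.3 and 50.2. Erg and Zbtb16 had 11 regions each, Gfi1b, a repressor in red cells and platelets, had 10 (up to 43.8-fold and 49.5-fold), and Lyl1 had 8. Spi1, which encodes PU.1, had 6 regions with median folds of 9.85 and 11.1. Tal1, Fli1, Etv6, Kit and Gata2 were under 9-fold at their highest region. No cluster over these 13 genes held an Ezh2 or H3K27me3 region, and 82.3% of all dense clusters likewise held neither. Of the 15 overlapping cytokine genes, 3 had an Ezh2 region in their cluster and 3 an H3K27me3 region. Of the 9 overlapping myeloid genes, 2 had an Ezh2 region and 1 an H3K27me3 region. The genes of the stem and progenitor list are long, with a median of 55.2 kb, against 17.2 kb for all genes. The part of length in the count was not tested.

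Of myeloid genes, which are short (median 5.34 kb), 9 of 27 overlapped (33.3%), all with an end inside: Spi1, Cebpa, Cebpe, Csf1r, Csf2rb, Egr1, Itgam, Mpo and Prtn3. Mpo, the granule peroxidase of neutrophils, had 6 regions up to 16.7-fold and 18.5-fold, and Cebpa, the factor of granulocyte fate, 6 up to 12.004-fold and 13.4-fold. Of genes of mast cells, basophils and eosinophils, 6 of 19 overlapped (31.6%): Cpa3, Gata2, Kit, Mitf, Cd63 and Gzmb. Gzmb, a cytotoxic granule protease that mast cells also make, had 9 regions up to 19.2-fold and 34.1-fold. Of erythroid and megakaryocytic genes 5 of 28 overlapped (17.9%), and Nfe2, needed for platelet release, had 8 regions up to 48.7-fold and 48.6-fold. Gfi1b, Tal1, Zfpm1 and Fli1 made up the rest and were already counted among the stem and progenitor regulators. Lymphoid genes were near the share of all genes: 3 of 30 T lymphoid genes (10.0%; Cd5 and Runx3 among them) and 1 of 22 B lymphoid genes (4.55%; Ikzf3). Of Runx and partner genes 5 of 9 overlapped (55.6%). These genes are long, with a median of 91.0 kb against 17.2 kb for all genes, and the part of length was not tested. Of Polycomb and chromatin regulators, 4 of 28 did (14.3%; Cbx2, Cbx8 and Kdm6b among them), and of cell cycle inhibitors 2 of 15 (13.3%; Btg2 and Cdkn1a). None of 39 Hox genes, 30 neuronal genes or 28 structural genes of liver, gut and muscle overlapped a dense cluster.

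**Figure D3:**
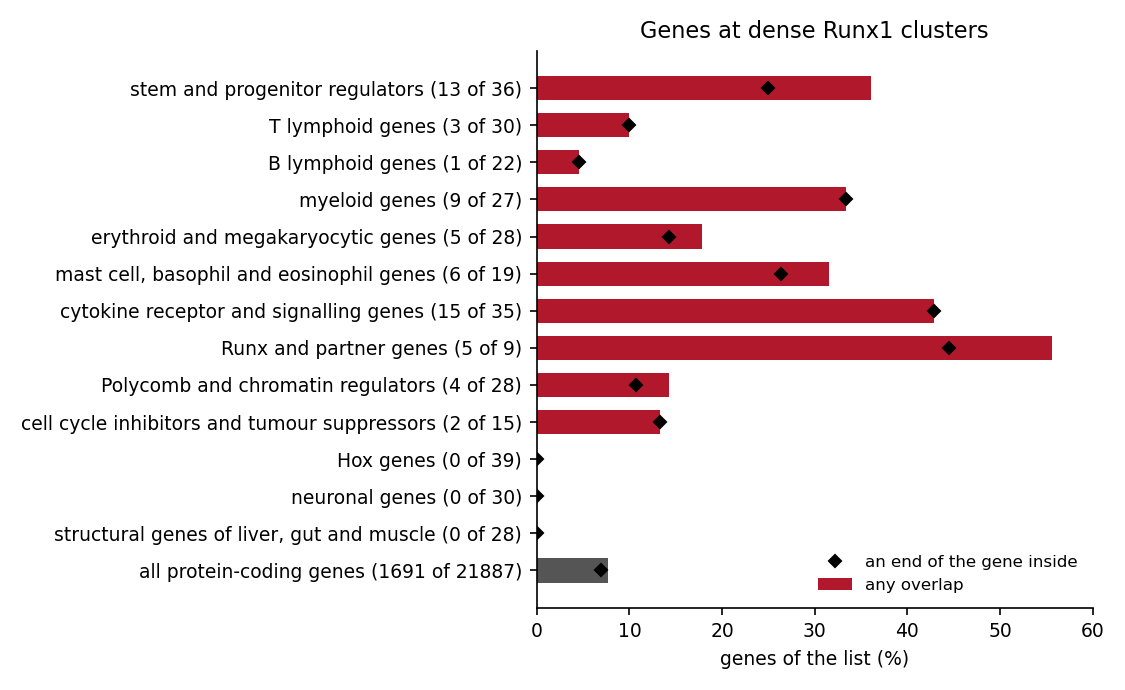
Share of the genes of each list that overlap a dense Runx1 cluster (bars) or have an end inside one (diamonds), with the share of all protein-coding genes in grey. Runx and partner genes (55.6%) and cytokine receptor and signalling genes (42.9%) are highest, against 7.73% of all genes, and 3 lists are at 0. The lists were chosen with earlier results of these data known.

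These counts depend on weak regions. With Runx1 peaks of q at most 1e-05, the clusters of 567 of the 1691 genes (33.5%) still held a dense cluster, and at q of at most 0.01 those of 964 (57.0%). Of the cytokine genes 5 of 15 remained at 1e-05 (Sh2b3, Ptpn6, Cish, Socs3 and Il2rg) and 8 at 0.01, near those shares. Of the stem and progenitor regulators 2 of 13 remained (Zfpm1 and Erg) and 6 at 0.01, and of the myeloid genes 0 of 9 and 3. Of the mast cell genes 2 of 6 remained and 3 at 0.01, of the erythroid and megakaryocytic genes 1 of 5 and 2, and of the Runx and partner genes 2 of 5 and 4.

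Ezh2 and H3K27me3 were each absent from most dense clusters, as from most clusters of any size. An Ezh2 region, built from both Ezh2 replicates in the same way, lay in 132 dense clusters (13.03%), against 8.40% of clusters of any size; an H3K27me3 region lay in 148 (14.6%), against 12.8%. The mark's count rests on weak peaks: with H3K27me3 peaks of q at most 0.01, 1.78% of dense clusters held a region of it. Both were present in 101 dense clusters, Ezh2 alone in 31, the mark alone in 47 and neither in 834 (82.3%). This split is not given here for clusters of any size. The part of cluster length in the shares per cluster was not tested, so shares of Runx1 regions and of bases are given as well. By these the order was the other way: 149 of their 8150 Runx1 regions touched an Ezh2 region (1.83%), against 4.17% of all Runx1 regions, and 176 touched an H3K27me3 region (2.16%), against 6.54%. At that q limit of the mark the shares were 0.294%, or 24 regions, against 0.702%.

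The share of Runx1 regions in contact with either was lower in each larger size of cluster. For Ezh2 it was 6.20% for single regions, 4.68% for pairs, 3.30% in clusters of 3 to 5 and 1.83% in dense clusters. For H3K27me3 it was 11.1%, 6.95%, 4.50% and 2.16% in the same order. The order was the same with the peaks of each replicate alone: the dense share was 2.98% and 2.11% for Ezh2 replicates 1 and 2, against 10.3% and 8.03% for single regions, and 2.54% and 1.61% for H3K27me3, against 13.2% and 8.23%. The dense share was also the lower one at gene ends and away from them. Among regions within 1 kb of a gene end, 5.05% of those in dense clusters and 8.01% of all touched Ezh2, and 3.30% and 6.26% touched H3K27me3. Farther away, 1.11% of those in dense clusters and 3.08% of all touched Ezh2, and 1.91% and 6.62% touched H3K27me3.

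**Figure D4:**
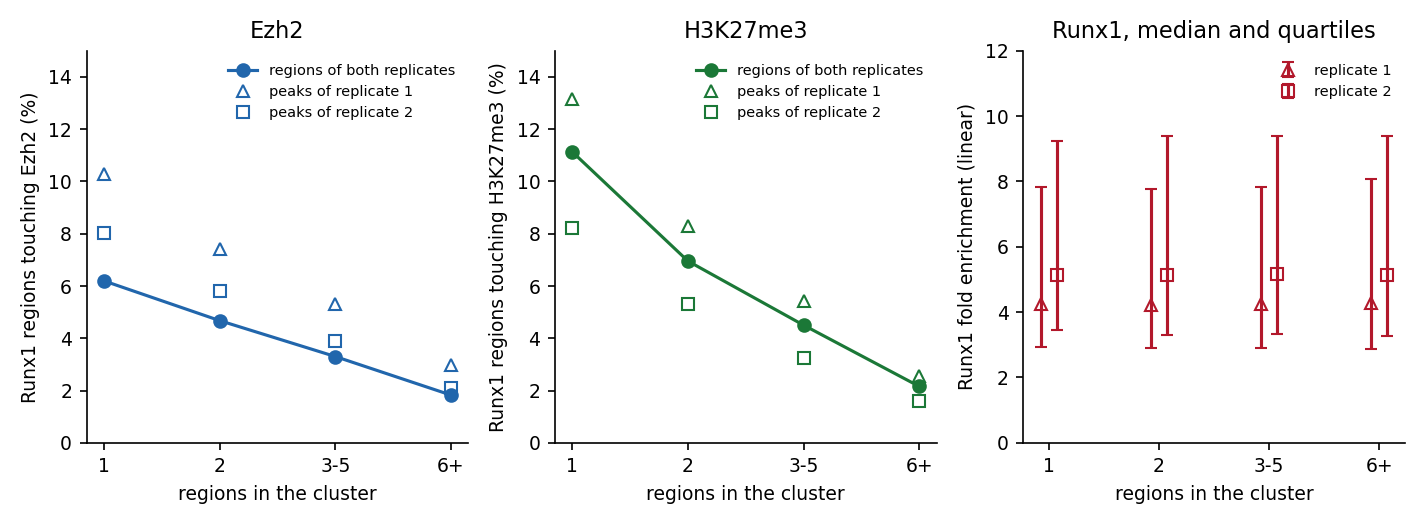
Share of Runx1 regions touching Ezh2 (left) or H3K27me3 (middle), and Runx1 fold enrichment as the median with quartiles (right), by the number of regions in the cluster; filled points are regions of both replicates, open points the peaks of 1 replicate. Contact is lower at each larger size, with 1.83% and 2.16% in dense clusters, while the median Runx1 fold stays between 4.22 and 5.17 in every class and replicate.

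Over bases, Ezh2 regions covered 0.769% of the span of dense clusters, against 1.43% of the chromosomes, and H3K27me3 regions 2.70%, against 11.2%. With single replicates the mark covered 3.04% and 1.86%, against 12.8% and 7.46%. Smaller Runx1 clusters also lay below the chromosomes for the mark, with 8.09% for single regions, 8.54% for pairs and 5.51% in clusters of 3 to 5. For Ezh2 the shares in the same order were 5.07%, 2.15% and 1.38%. The low coverage in dense clusters reached beyond their edges. H3K27me3 covered 5.60% of bases in the first 5 kb outside dense clusters and 14.4% at 45 to 50 kb; around single regions it covered 13.8% and 16.4% at those distances. Ezh2 covered 0.929% next to dense clusters and 2.35% at 45 to 50 kb, against 2.37% and 2.44% around single regions. Gene ends were also denser inside dense clusters, as given above, and their part in this was not tested.

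**Figure D5:**
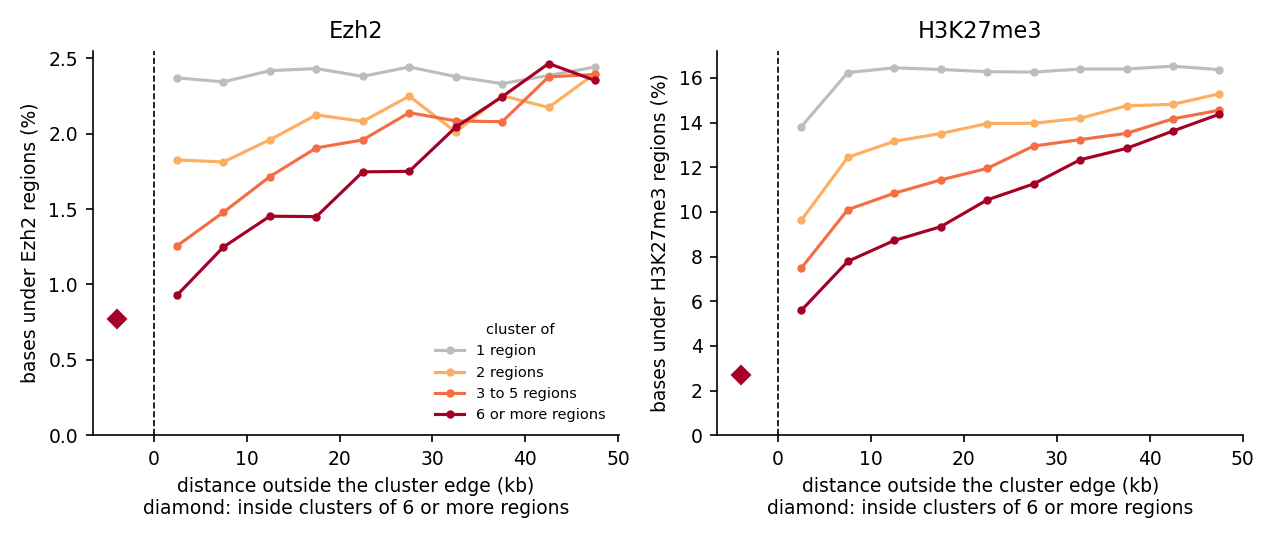
Share of bases under Ezh2 (left) and H3K27me3 regions (right) in steps of 5 kb outside the edges of clusters, by cluster size; the diamond is the share inside dense clusters. For the mark, dense clusters rise from 5.60% at the edge to 14.4% at 45 to 50 kb, and single regions from 13.8% to 16.4%.

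The Ezh2 regions that did lie in dense clusters included many with small q-values. Of 309 such regions, 130 had a q of 0.01 or less in both replicates (42.1%), against 13.9% of all 65316 Ezh2 regions. Their median folds did not differ in the same direction in both replicates: 2.88 and 2.53 in replicates 1 and 2, against 2.65 and 2.58 for all. For the 132 Ezh2 regions in dense clusters that touched a Runx1 region the share with such a q was 68.2%. It was 54.7% of the 1800 Ezh2 regions that touched a Runx1 region anywhere, and 22.6% of those in dense clusters that touched none. Runx1 and Ezh2 share an input and a fixation, and its part in their overlap was not tested. Of 333 H3K27me3 regions in dense clusters 19 had such a q (5.71%), against 1.43% of all 110650; among those that touched a Runx1 region the share was 9.59% in dense clusters and 10.3% anywhere.

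In a small group of dense clusters the mark covered much of the span: at least 25% in 42 clusters, and at least 50% in 14. These counts use mark peaks of any deposited q. With H3K27me3 peaks of q at most 0.01, 1.78% of all dense clusters held any region of it. The highest share, 80.7%, was over Otop3, a proton channel, and Hid1, where all 6 Runx1 regions touched the mark and 4 touched Ezh2; the folds were at most 7.67 and 7.52. Vegfa, the vascular growth factor, had 5 of 6 regions in the mark and up to 22.7-fold and 20.6-fold, and Ikzf3, the lymphoid factor Aiolos, had 3 of 6 and up to 6.05-fold and 9.15-fold. By bases the mark was widest at Tgm2, a transglutaminase (32113 bp, 74.3% of the span, 9 regions), then at Sub1 (26322 bp), Crispld2 (24806 bp), Otop3 and Hid1 (24539 bp) and Batf3, a factor of dendritic cells (24369 bp). At Tgm2 the 4 regions in the mark were at 6.13-fold or less, while the strongest, at 78.2-fold and 89.3-fold, lay outside it at the other end of the cluster. Over all clusters with the mark no such split was seen: regions in it had median folds of 4.28 and 5.65 (176 regions) and those outside it 4.69 and 5.38 (1017 regions).

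Ezh2 was widest over Zfhx3, a large homeodomain factor, with 14547 bp or 45.8% of the span, and 5 of its 8 regions touched it. Cbx2 and Cbx8, which encode chromodomain subunits of Polycomb repressive complex 1, shared a cluster of 7 regions (chromosome 11, 119022695 to 119062592) with 12902 bp under Ezh2 and 18147 bp under the mark. Its strongest region, at 18.8-fold and 13.6-fold, lay 175 bp from a gene end and touched Ezh2 but not the mark. Ccnd2, the cell cycle activator cyclin D2, had the highest share under Ezh2 of any dense cluster, 46.1%, with 65.0% under the mark (chromosome 6, 127143143 to 127166028). Of its 7 regions 5 touched the mark and 4 Ezh2, among them the strongest at 22.4-fold and 20.1-fold, so all 3 antibodies met at 1 stretch. That region lay 77 bp from an end of the gene, where start and end were not told apart. In Ezh2 replicates 1 and 2 alone the share under Ezh2 was 50.3% and 44.4%. Over all dense clusters, 91 of 8150 Runx1 regions, in 60 clusters, touched both Ezh2 and H3K27me3. The share of all Runx1 regions that touched both is not given here. Of the 50 dense clusters that overlapped a gene of the 6 blood cell lists, the cytokine list or the Runx and partner list, 6 held an Ezh2 region and 5 an H3K27me3 region, near the 13.03% and 14.6% of all dense clusters.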

How the data were processed

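Chromatin immunoprecipitation and sequencing of EML_C1 cells gave 8 libraries, of which the 6 with an antibody have a peak list each; the 2 inputs were not analysed here. Per the submitters' processing notes, Bowtie2 2.2.1, Picard, SAMtools and MACS2 2.0.10 were used with mm10; what each did and with which parameters is not given in the sources used here. The deposited lists were made per library and not pooled, and whether the inputs served as controls in the calling is not given. Each deposited peak has a fold enrichment, a linear ratio, used as the authors' value, and p- and q-values that the authors deposited on the −log10 scale. Narrow peaks were deposited for Runx1 and Ezh2 and broad peaks for H3K27me3, so folds and q-values of the mark and of the other antibodies are not on 1 scale.

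Overlapping or adjacent peaks of both replicates were merged, and regions with both replicates were kept. Overlap meant at least 1 bp. Coordinates are mm10, counted from 1, and genes, promoters and miRNAs came from RefSeq tables on GRCm38.p6, which has the same coordinates. The gene table gives no strand, exon or UTR, so the start and end of a gene count alike, within 1 kb of a region's centre. The extent of a chromosome is the highest end of a peak or gene. Sequences of regions outside the promoter and miRNA tables were not analysed here. Of 348 listed symbols, 347 matched the 21887 protein-coding genes, 346 after a repeat within a list was dropped. Named clusters were the 10 with the most regions (ties at 19 regions went to chromosome and start order, so others of 19 were left out), the 3 widest, the 3 densest, the 5 highest in mean fold, the 5 with the most Ezh2 and the 5 with the most H3K27me3 bases, and up to 3 per gene list; other genes, microRNAs and clusters named were chosen after their values were seen. The members, lists and tests were chosen with earlier results of these data known. The clusters were chosen on the Runx1 lists and each antibody has 2 libraries, so no test was run. Other joining distances, minimum numbers, q limits, overlaps and left-out replicates were tried. Python 3.11.15, pandas 2.3.3, numpy 2.4.6 and matplotlib 3.10.9 were used, and the steps were tested on simulated peaks.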

Additional observations from a re-analysis of the deposited data

How the results depend on the processing

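The number of dense clusters depended on the settings. Joining over 5000 bp gave 197 and over 25000 bp 1973; asking for at least 8 regions gave 442; Runx1 peaks with a q of at most 0.01 gave 525, and with at most 1e-05 277. A single Runx1 list gave 2222 clusters without Runx1 replicate 1 and 1751 without replicate 2. Genes overlapping dense clusters numbered 240, 5097, 845, 918 and 499 under the first 5 settings in the same order, and 2704 to 3290 with a single Runx1 list; counting genes with an end inside, an alternative added after the data were seen, gave 1526.

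The share of dense clusters with an Ezh2 region was 6.09% and 28.2% at 5000 and 25000 bp and 8.19% with Ezh2 peaks of q at most 0.01; leaving out 1 Runx1 or Ezh2 replicate gave 13.3% to 21.6%. With an H3K27me3 region it was 8.12% and 36.9%, 1.78% with H3K27me3 peaks of q at most 0.01, and 16.1% to 21.5% with a replicate left out. At 25000 bp, 2.55% of regions touched Ezh2 and 3.62% H3K27me3, and with H3K27me3 peaks of q at most 0.01 the share touching H3K27me3 was 0.294%; leaving out a replicate gave 1.71% to 2.98% for Ezh2 and 1.61% to 3.03% for the mark. The share at gene ends was 17.2% at 5000 bp, 20.8% at 25000 bp, 17.0% with at least 8 regions, 18.8% and 19.6% at the 2 Runx1 q limits, 28.5% within 2.5 kb of an end, and 17.1% to 17.6% with a single Runx1 list. Of 65 alternative values, 37 moved beyond the spread used and 28 did not. In each setting of Runx1, Ezh2 and H3K27me3 peaks and left-out replicates, the share of dense-cluster regions touching Ezh2 or the mark was below that of all Runx1 regions; with the mark at q of at most 0.01 it rested on 24 regions (0.294%, against 0.702% of all). The cause of these changes was not tested. No paired analysis was possible because the results come from no test. Without read totals, the limit that depth sets is unknown.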
